A study of Homo sapiens with 6 samples.

Results

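The interleukin 1 family genes described here are 9 rows of a deposited expression table of 30949 genes, taken by gene symbol. They are the ligands IL1A, IL1B, IL18 and IL33, the receptor antagonist IL1RN, and the receptor chains IL1R1, IL1RAP, IL1RL1 and SIGIRR, and all 9 symbols had a row. The ITC group was 3 cultures of human astrocytes given a mixture of complement C1q with the cytokines interleukin 1 alpha and tumor necrosis factor alpha, and the vehicle group was 3 cultures given vehicle. Both groups were wild-type astrocytes made from the induced pluripotent stem cell line WTC11, an established human line, and grown as floating aggregates in alginate capsules in Neural Media, and RNA was sequenced 48 hours after treatment. Per the series description, separate batches of capsules were each divided between the treatments, so that the cells of all libraries share 1 parental line. The comparison asks how transcripts in the encapsulated astrocytes differ after the inflammatory mixture, and interleukin 1 alpha, the product of IL1A, is itself part of that mixture. The counts are of RNA, so the added protein is not measured by them.

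Interleukin 1 alpha and interleukin 1 beta bind the receptor chain IL1R1, which then recruits the accessory chain IL1RAP and signals through MYD88 and the IRAK kinases to NF-kappa-B. Interleukin 33 uses IL1RL1 with the same accessory chain, while interleukin 18 uses receptor chains of its own. The family carries its own brakes: IL1RN encodes a ligand that occupies IL1R1 without signaling, and SIGIRR encodes a receptor relative that dampens the signal. In the brain, interleukin 1 is best known as a product of microglia that acts on astrocytes and endothelial cells, and interleukin 33 as an alarm protein stored in the nucleus of glia.

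Transcripts of both interleukin 1 ligands, of the signaling receptor IL1R1, of its partner IL1RAP and of the inhibitory SIGIRR were higher in ITC, and IL18 and IL33 were not called. IL33 was called lower in 5 of 16 alternative settings, the replicate block among them. At a Benjamini-Hochberg adjusted p under 0.05 over all tested genes, the quasi-likelihood test of edgeR called 5 of the 7 members that passed the filter on low counts, 5 higher and 0 lower. The same rule called 39.4% of all 16756 tested genes, 20.4% higher and 19.0% lower. In these 5 members each ITC library lay above each vehicle library. The groups did not overlap in 50.2% of all tested genes, with ITC above in 26.1% and below in 24.0%. The median log2 fold change of ITC over vehicle was 2.18 over these 7 members and -0.01 over all tested genes. IL1RN and IL1RL1 did not pass the filter and are given as counts. IL1A and IL1B, with 6 and 5 counts over the vehicle group, could pass it only through their ITC counts. SIGIRR, with 9, 24 and 40 vehicle counts, also needed its ITC counts to pass. The count of 5 called members and the median of 2.18, which is SIGIRR's own value, thus depend in part on the filter. In bulk RNA, fewer cells of a type and less RNA per cell cannot be told apart.

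**Figure D1:**
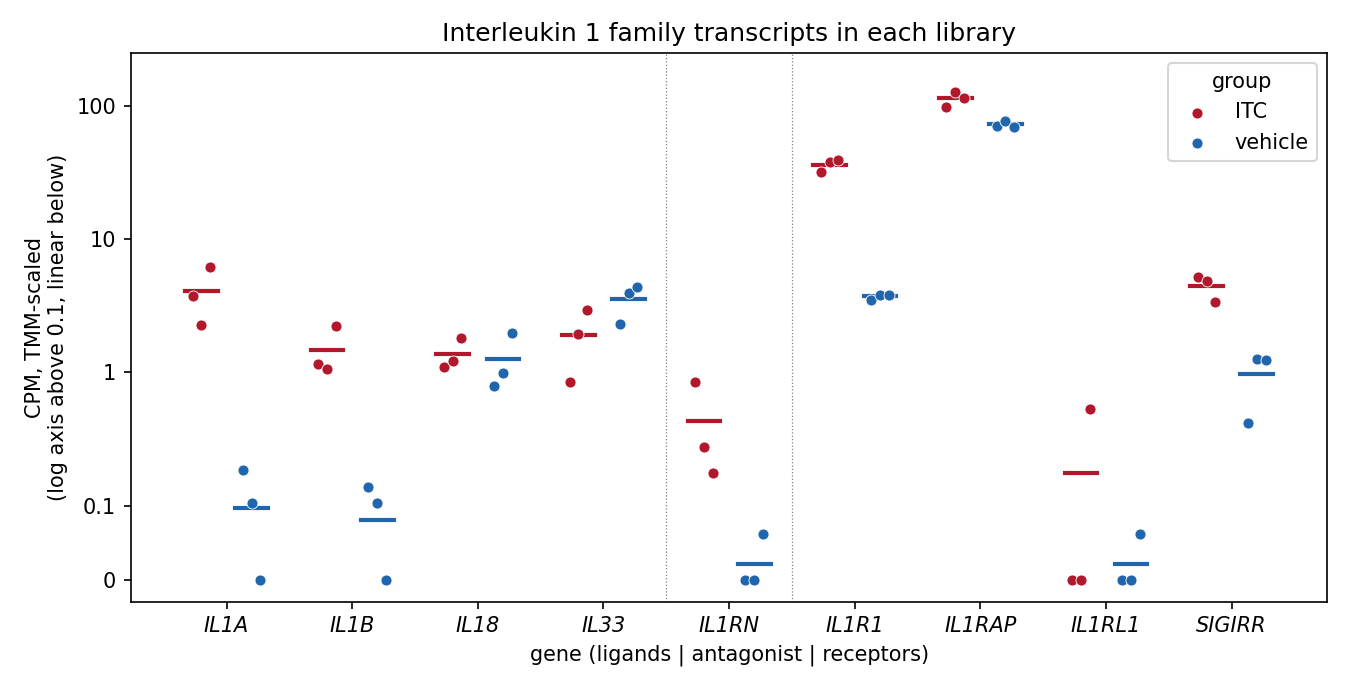
Level of each of the 9 interleukin 1 family genes in CPM, counts scaled to a common library size (log axis above 0.1, linear below), in the 3 ITC libraries (left of each gene) and the 3 vehicle libraries (right). The ITC points lie above all vehicle points for IL1A, IL1B, IL1RN, IL1R1, IL1RAP and SIGIRR, and the groups overlap for IL18, IL33 and IL1RL1. Horizontal lines are group means.

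The called members start from promoters of unlike composition. Sequences are shown for the ligands IL1A and IL1B, which lie low in CG content, and for IL1RAP and SIGIRR, which lie high. All of these were higher in ITC. IL1R1, also called higher and not shown, lies low like the ligands in the 1 of its 4 windows chosen by the rule below. The stretches below lie upstream of all annotated exons, are written 5′ to 3′ on the gene's strand from RefSeq's GRCh38.p14, and have each CG dinucleotide in capitals. IL1A is shown at chr2:112784591-112784743 (minus strand), IL1B at chr2:112836904-112837029 (minus strand), IL1RAP at chr3:190513835-190514050 (plus strand) and SIGIRR at chr11:417456-417647 (minus strand).
IL1A: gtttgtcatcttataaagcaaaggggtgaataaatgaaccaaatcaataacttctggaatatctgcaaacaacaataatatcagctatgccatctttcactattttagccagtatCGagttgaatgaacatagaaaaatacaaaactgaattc
IL1B: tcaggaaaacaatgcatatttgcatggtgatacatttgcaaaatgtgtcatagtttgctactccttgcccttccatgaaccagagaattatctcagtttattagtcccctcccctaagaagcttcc
IL1RAP: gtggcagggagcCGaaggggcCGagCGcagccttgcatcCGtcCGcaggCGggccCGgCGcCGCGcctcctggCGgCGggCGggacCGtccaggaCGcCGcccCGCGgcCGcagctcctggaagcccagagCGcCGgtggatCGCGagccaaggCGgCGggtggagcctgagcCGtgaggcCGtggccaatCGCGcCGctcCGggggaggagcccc
SIGIRR: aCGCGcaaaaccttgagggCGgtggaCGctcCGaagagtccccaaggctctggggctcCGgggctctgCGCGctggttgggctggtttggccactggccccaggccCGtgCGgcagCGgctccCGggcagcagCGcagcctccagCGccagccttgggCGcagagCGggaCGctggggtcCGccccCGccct
The IL1A stretch has 1 CG in 153 bases and the IL1B stretch has 0 in 126 bases, whereas IL1RAP has 31 in 216 bases and SIGIRR has 19 in 192 bases. Over the 250 bases upstream of the RefSeq start nearest the gene's 5′ end, which can include exon bases, IL1B had 1 CG and IL1A had 7. The same windows had 33 CG for IL1RAP and 28 for SIGIRR. Among 11576 promoters of tested genes the median was 21, so IL1B stood at percentile 1.06, IL1A at 11.9, SIGIRR at 73.6 and IL1RAP at 86.6. The window of IL1R1 chosen by the same rule had 6 CG, at percentile 10.3. Its stretch outside exons begins at chr2:102104354, inside the deposited gene, which begins at 102064544. The windows of IL1R1 held 3 to 31 CG, so whether it lies low or high depends on the window. Genes called higher in ITC had the same median of 21 over 2574 promoters.

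RefSeq promoter windows were matched for 8 of the 9 members, and IL18 had no match. IL1R1 has 4 windows, with 3 to 31 CG, so that its promoters span nearly the whole range of the other members. Letters of 4 motifs were searched on both strands of the 16 windows of 250 bases. A pattern for NF-kappa-B was in 1 of 16 windows, of IL1RN, and in 5.69% of the windows of tested genes and 7.30% of those of genes called higher. The AP-1 pattern TGANTCA was in 4 of 16 windows, belonging to IL1A (2 overlapping windows), IL1RN and IL1RL1, against 4.76% of the windows of tested genes. TTGCNNAA, a C/EBP pattern, was in 1 window, of IL1B, against 6.51%. TATAAA was in 4 windows, against 6.32%. These counts describe letters in short windows and no site of binding.

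IL1A encodes interleukin 1 alpha (ENSG00000115008, GRCh38 chr2:112773915-112784590, minus strand), which is active as a precursor and after cleavage. It had 62, 41 and 105 counts in ITC replicates 1, 2 and 3, against 4, 2 and 0 counts in the vehicle libraries. In CPM, counts scaled to a common library size, this was 3.76, 2.27 and 6.19 in ITC and 0.185, 0.105 and 0 in vehicle. The groups were far apart, and ITC replicate 3 was the highest. IL1A thus had a log2 fold change of 5.49 ± 0.68 (SE, n = 3 each, edgeR adjusted p = 1.36e-05). With 6 counts over the vehicle group the ratio of 49.2 had a 95% counting interval of 22.2 to 136. Without vehicle replicate 1 the log2 fold change was 6.46 and without vehicle replicate 3 it was 4.68, both called.

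IL1B encodes interleukin 1 beta (ENSG00000125538, chr2:112829751-112836903, minus strand), which is made as an inactive precursor and cut by caspase 1. It had 19, 19 and 38 counts in ITC, against 3, 2 and 0 counts in vehicle, or 1.15, 1.05 and 2.24 CPM against 0.139, 0.105 and 0 CPM. ITC replicate 3 was again the highest, and the groups did not overlap. Its log2 fold change was 4.27 ± 0.76 (SE, n = 3 each, edgeR adjusted p = 0.000422), and the ratio of 21.6 had a counting interval of 8.85 to 68.4. It was 4.98 without vehicle replicate 1 and 3.48 without vehicle replicate 3, both called. Both ligands thus stayed low in ITC per length, at 1.97 ± 0.933 FPKM for IL1A and 0.492 ± 0.211 FPKM for IL1B (SD, n = 3). In vehicle they averaged 0.0472 ± 0.046 FPKM for IL1A and 0.027 ± 0.024 FPKM for IL1B. By CPM, IL1A stood at percentile 28.7 of tested genes in ITC and 0.543 in vehicle, and IL1B at 17.0 in ITC and 0.454 in vehicle. By log2 fold change they ranked 109 and 206 of 16756.

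The 3′ UTR of IL1B carries AU-rich repeats, the kind of element through which many cytokine transcripts are degraded. The 30 bases shown begin at base 338 of the 610-base 3′ UTR of ENST00000263341.6 (GENCODE 29), and the capitals mark overlapping copies of the nonamer TTATTTATT.
IL1B 3′ UTR: gcttccctatTTATTTATTTATTtgtttgt
IL1B held 2 copies of this nonamer, and the other 8 members held 0. The shorter pentamer ATTTA occurred 6 times in IL1B, or 9.84 per kilobase, and 5 times in the 1152 bases of IL1A, or 4.34 per kilobase. IL1RN, IL18 and SIGIRR had 0 pentamers. A nonamer was in the 3′ UTR of 9.61% of 13968 tested protein-coding genes and of 10.9% of the 3147 called higher in ITC.

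IL1RN, the receptor antagonist (ENSG00000136689, chr2:113107214-113134016, plus strand), had 14, 5 and 3 counts in ITC, against 0, 0 and 2 counts in vehicle. In CPM this was 0.849, 0.277 and 0.177 in ITC and 0, 0 and 0.0617 in vehicle. Each ITC library was above each vehicle library, and ITC replicate 1 stood well above the other ITC libraries. The ratio of scaled counts was 15.6 (95% counting interval 3.84 to 137). The filter on low counts left it out of the main test. Tested without that filter it had an edgeR adjusted p of 0.0251, and with DESeq2 0.0354.

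The balance of agonist to antagonist could be read only within ITC, since 2 vehicle libraries had no IL1RN count. IL1A over IL1RN was 6.79, 12.6 and 53.7 in FPKM in ITC replicates 1, 2 and 3, and IL1B over IL1RN was 1.43, 3.996 and 13.3. Agonist transcripts exceeded those of the antagonist in each ITC library, by amounts that varied widely. On log2(FPKM + 0.01), IL1A over IL1RN averaged 3.91 ± 1.44 in ITC and 1.47 ± 2.63 in vehicle (SD, n = 3 each, exact two-sided permutation p = 0.2, adjusted over 3 ratios 0.3). Each vehicle value of this ratio holds a gene at 0 and is set by the pseudocount, and the difference of 2.45 was 0.94 without vehicle replicate 3 and 3.38 without vehicle replicate 1. IL1B over IL1RN averaged 1.97 ± 1.51 in ITC and 1.04 ± 2.24 in vehicle (exact permutation p = 0.7, adjusted 0.7), and the difference of 0.92 turned to -0.37 without vehicle replicate 3. With 3 against 3 the smallest p is 0.1.

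IL18 encodes interleukin 18 (ENSG00000150782, chr11:112143251-112164117, minus strand), a caspase 1 substrate known for driving interferon gamma production. It had 18, 22 and 31 counts in ITC, against 17, 19 and 64 in vehicle, or 1.09, 1.22 and 1.83 CPM against 0.787, 0.994 and 1.98 CPM. The groups overlapped, and replicate 3 was the highest in both. The log2 fold change of 0.11 ± 0.46 (SE, n = 3 each) was not called (edgeR adjusted p = 0.869), and its sign changed with the scaling (-0.03 with upper quartile scaling, -0.11 with library size only).

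IL33 encodes interleukin 33 (ENSG00000137033, chr9:6215786-6257983, plus strand). It was the member with the lowest log2 fold change, with 14, 35 and 50 counts in ITC against 50, 75 and 142 in vehicle. The levels were 0.849, 1.94 and 2.95 CPM in ITC and 2.32, 3.92 and 4.38 CPM in vehicle. ITC replicate 3 lay above vehicle replicate 1, so the groups overlapped. The log2 fold change of -0.89 ± 0.41 (SE, n = 3 each) was not called (edgeR adjusted p = 0.0981, unadjusted 0.0458). Without ITC replicate 3 it was -1.32 (adjusted p = 0.0193) and without vehicle replicate 1 it was -1.13 (adjusted p = 0.0300). It was also called with library size only, without a filter and with the replicate block (-0.95, edgeR adjusted p = 0.0145).

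**Figure D2:**
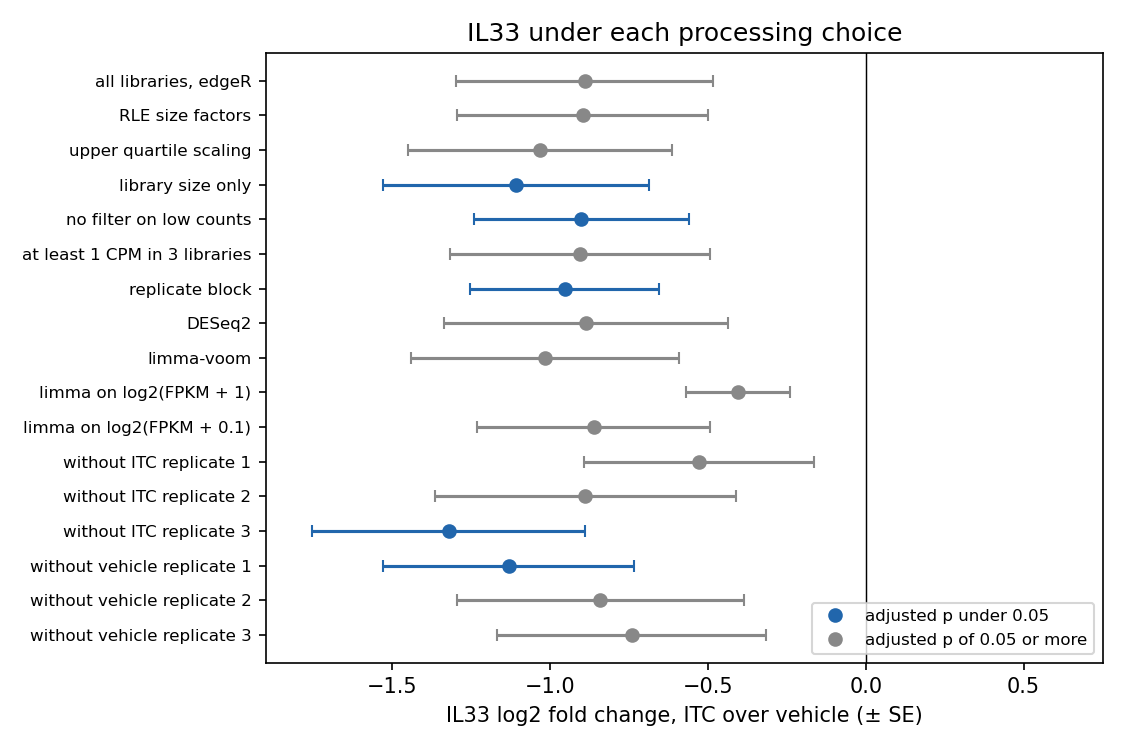
Log2 fold change of IL33, ITC over vehicle, with bars of 1 SE, with all libraries in edgeR (top) and under each alternative setting, blue where the adjusted p was under 0.05. The values run from -1.32 to -0.41, all below 0, and 5 of the 16 alternatives were under the threshold.

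IL1R1, the signaling receptor chain for both interleukin 1 ligands (ENSG00000115594, chr2:102064544-102179874, plus strand), had the smallest adjusted p among the members. It had 523, 686 and 662 counts in ITC, against 76, 73 and 124 counts in vehicle. The levels were 31.7, 38.0 and 39.0 CPM in ITC and 3.52, 3.82 and 3.83 CPM in vehicle. Both groups were tight and did not overlap. IL1R1 had a log2 fold change of 3.28 ± 0.18 (SE, n = 3 each, edgeR adjusted p = 3.37e-09), a 9.71-fold difference. Its place among tested genes by CPM was percentile 63.8 in ITC and 26.3 in vehicle.

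By Euclidean distance of log2 CPM over the 6 libraries, the 3 protein-coding genes nearest to IL1R1 were KLF9, SLC39A8 and HMCN1, at distances of 0.561, 0.697 and 0.757. KLF9 encodes a zinc finger transcription factor and averaged 37.3 ± 0.310 CPM in ITC and 4.57 ± 0.234 CPM in vehicle (SD, n = 3 each). SLC39A8, a metal ion transporter, averaged 37.9 ± 3.31 CPM in ITC and 4.70 ± 1.14 CPM in vehicle. HMCN1, a matrix protein, averaged 32.5 ± 9.02 CPM in ITC and 4.13 ± 1.06 CPM in vehicle. The distance takes the level and the difference between groups together, so it picks genes of like level in both groups.

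IL1RAP, the accessory chain shared by the receptors for interleukin 1, interleukin 33 and interleukin 36 (ENSG00000196083, chr3:190514051-190659750, plus strand), was the most abundant member per length in both groups. It had 97.8, 128 and 116 CPM in ITC, against 70.8, 77.7 and 69.4 CPM in vehicle. The groups did not overlap, and ITC replicate 1 was the closest to vehicle. The log2 fold change of 0.65 ± 0.16 (SE, n = 3 each, edgeR adjusted p = 0.00415), or 1.57-fold, was the smallest of the called members. Of its exon bases, 4.63% are shared with AC108747.1, a noncoding RNA on the same strand, so reads there could belong to either.

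The chains of the interleukin 1 receptor came closer in level in ITC. IL1R1 averaged 5.27 ± 0.496 FPKM in ITC and 0.538 ± 0.0170 FPKM in vehicle, while IL1RAP averaged 10.2 ± 1.27 FPKM in ITC and 6.44 ± 0.438 FPKM in vehicle (SD, n = 3 each). IL1R1 over IL1RAP was 0.529, 0.484 and 0.551 in the ITC libraries, against 0.0811, 0.0802 and 0.0900 in the vehicle libraries. On the log2 scale the ratio was -0.94 ± 0.10 in ITC and -3.56 ± 0.09 in vehicle, a difference of 2.61 (exact permutation p = 0.1, two-sided and the smallest possible here, adjusted over 3 ratios 0.3). In all 6 libraries the accessory chain was the more abundant transcript.

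**Figure D3:**
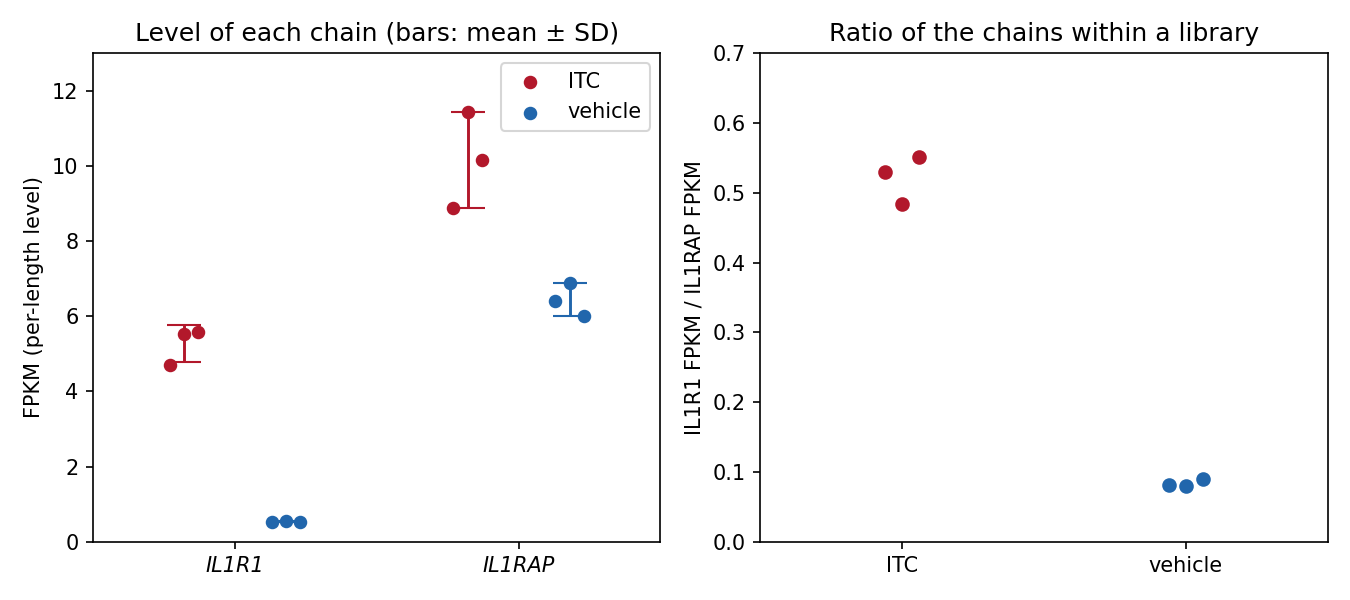
IL1R1 and IL1RAP levels in FPKM (points are libraries, bars mean ± SD) and the ratio of IL1R1 to IL1RAP in each library, ITC left of vehicle. The ratio lies between 0.484 and 0.551 in the ITC libraries and between 0.0802 and 0.0900 in the vehicle libraries.

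SIGIRR, the inhibitory relative of the receptor chains (ENSG00000185187, chr11:405716-417455, minus strand), was also higher in ITC. It had 86, 87 and 57 counts in ITC, against 9, 24 and 40 in vehicle, or 5.21, 4.83 and 3.36 CPM against 0.417, 1.26 and 1.23 CPM. The groups did not overlap, and ITC replicate 3, the highest for IL1A and IL1B, was the lowest here. SIGIRR had a log2 fold change of 2.18 ± 0.40 (SE, n = 3 each, edgeR adjusted p = 0.000496), or 4.54-fold. Per length it averaged 1.32 ± 0.308 FPKM in ITC and 0.282 ± 0.137 FPKM in vehicle.

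IL1RL1, the receptor for interleukin 33, also known as ST2 (ENSG00000115602, chr2:102311502-102352037, plus strand), was close to absent from the counts. It had 0, 0 and 9 counts in ITC, against 0, 0 and 2 counts in vehicle. All of its counts came from replicate 3 of each group, at 0.530 CPM in ITC and 0.0617 CPM in vehicle. The ratio of 6.39 had a counting interval of 1.32 to 60.8 and rests on that 1 ITC library. Its exons share 95 bases with IL18R1 on the same strand. It did not pass the filter, and without a filter edgeR gave an adjusted p of 0.361.

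Ordered per length, the members in ITC ran from IL1RAP, through IL1R1, IL1A and SIGIRR, to IL33, IL18, IL1B, IL1RN and IL1RL1. IL1A and SIGIRR did not differ beyond their spread there, nor did IL33 (0.603 ± 0.323 FPKM), IL18 (0.540 ± 0.145 FPKM) and IL1B. In vehicle the order was IL1RAP, IL33 (1.11 ± 0.322 FPKM), IL1R1, IL18 (0.485 ± 0.235 FPKM) and SIGIRR, followed by the other ligands and IL1RL1. In vehicle, IL1R1 and IL18 did not differ beyond their spread, nor did IL18 and SIGIRR (0.282 ± 0.137 FPKM). IL33 was thus the most abundant of the 4 ligands per length in vehicle, and IL1A in ITC.

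The other ligands of the family were sparsely detected. Of 6 such genes, 3 had a row and 0 passed the filter, and IL36A, IL37 and IL1F10 were not analysed here. IL36B, an agonist of the interleukin 36 receptor, had 5, 3 and 8 counts in ITC and 0 in each vehicle library, which is at least 7.57-fold higher when 3 counts over the vehicle group are taken as the floor. IL36RN, the antagonist of the same receptor, had 9, 12 and 1 counts in ITC and 0 in each vehicle library, at least 10.4-fold higher on that floor. IL36G had 0, 1 and 0 counts in ITC, against 0, 0 and 6 in vehicle. These are counts of a few reads, and edgeR without a filter called IL36B and IL36RN.

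Of 7 other receptors and binding proteins, 6 had a row and 4 were tested, of which 2 were higher, 0 lower and 2 not called, with a median log2 fold change of 0.49. Among all tested genes 20.4% were higher and 19.0% lower. IL18R1, the ligand-binding chain for interleukin 18, had 15, 36 and 32 counts in ITC, against 4, 6 and 26 in vehicle, with a log2 fold change of 1.79 ± 0.56 (edgeR adjusted p = 0.0201). The vehicle counts of IL18R1 alone would not have passed the filter on low counts. It lost its call without ITC replicate 2 (adjusted p = 0.0875), without vehicle replicate 1 (0.0570) and without vehicle replicate 2 (0.0710), and without vehicle replicate 3 its log2 fold change was 2.62. IL1RAPL2, a neuronal relative of the accessory chain, averaged 13.7 ± 1.56 CPM in ITC and 8.17 ± 1.34 CPM in vehicle (log2 fold change 0.75 ± 0.20, edgeR adjusted p = 0.00780), a call lost with library size only (0.0555). Its paralog IL1RAPL1, at 3.78 ± 1.72 CPM in ITC and 3.21 ± 0.301 CPM in vehicle, was not called (adjusted p = 0.609). IL18BP, the soluble inhibitor of interleukin 18, averaged 7.14 ± 0.909 CPM in ITC and 6.72 ± 1.13 CPM in vehicle and was not called (adjusted p = 0.800). It shares 15.6% of its exon bases with NUMA1 on the opposite strand. IL1R2, the decoy receptor for interleukin 1, had 4, 8 and 4 counts in ITC, against 0, 1 and 0 in vehicle, a ratio of 22.7 (95% counting interval 3.53 to 952). IL1R2 did not pass the filter, and its adjusted p was 0.0752 by edgeR without a filter and 0.0472 by DESeq2. IL1RL2, the interleukin 36 receptor, had 0, 4 and 2 counts in ITC, against 0, 2 and 0 in vehicle, and IL18RAP was not analysed here.

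Downstream of the receptor, 17 of 17 signaling genes were tested, of which 8 were higher, 1 lower and 8 not called, with a median log2 fold change of 0.28. Over all tested genes, 20.4% were higher and 19.0% lower. IRAK2, a kinase-like partner in the complex that forms on MYD88, averaged 82.0 ± 8.80 CPM in ITC and 4.03 ± 0.807 CPM in vehicle, a log2 fold change of 4.36 ± 0.20 (SE, edgeR adjusted p = 5.21e-10). MYD88, the adaptor itself, averaged 36.7 ± 9.19 CPM in ITC and 14.2 ± 0.445 CPM in vehicle (1.37 ± 0.19, adjusted p = 4.23e-05). IRAK1, the kinase recruited after IRAK4, averaged 81.7 ± 11.3 CPM in ITC and 39.7 ± 0.573 CPM in vehicle (1.04 ± 0.15, adjusted p = 7.36e-05). TAB3, which ties ubiquitin chains to the kinase MAP3K7, averaged 69.9 ± 7.78 CPM in ITC and 31.2 ± 1.61 CPM in vehicle (1.16 ± 0.15, adjusted p = 2.36e-05). The gene that fell was PELI2, a Pellino ubiquitin ligase, at 10.6 ± 1.995 CPM in ITC and 22.9 ± 0.963 CPM in vehicle (-1.11 ± 0.18, adjusted p = 0.000202).

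The most abundant signaling genes that were not called were TAB2, UBE2N and PELI1. TAB2, the paralog of TAB3, averaged 195 ± 18.2 CPM in ITC and 170 ± 22.8 CPM in vehicle (adjusted p = 0.369). UBE2N, a ubiquitin-conjugating enzyme that shares 39.5% of its exon bases with NUDT4 on the opposite strand, averaged 109 ± 19.3 CPM in ITC and 133 ± 36.6 CPM in vehicle (adjusted p = 0.276). PELI1 averaged 43.9 ± 4.505 CPM in ITC and 48.1 ± 3.69 CPM in vehicle (adjusted p = 0.521). The other called genes, named after their values were seen, were IRAK3, MAP3K3, TOLLIP and MAP3K7. IRAK3, an inhibitory member of the IRAK group, averaged 2.39 ± 0.656 CPM in ITC and 0.683 ± 0.117 CPM in vehicle (1.79 ± 0.41, edgeR adjusted p = 0.00296), and the kinase MAP3K3 rose by 0.67 ± 0.17 (adjusted p = 0.00610). TOLLIP, an endosomal adaptor (0.55 ± 0.16, adjusted p = 0.0131), lost its call with library size only (0.108), without vehicle replicate 2 (0.0619) and without vehicle replicate 3 (0.0674). MAP3K7 (0.58 ± 0.17, adjusted p = 0.0157) lost its call with upper quartile scaling (0.0615) and library size only (0.125), and without ITC replicate 2 (0.0541), ITC replicate 3 (0.0647) or vehicle replicate 2 (0.118).

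**Figure D4:**
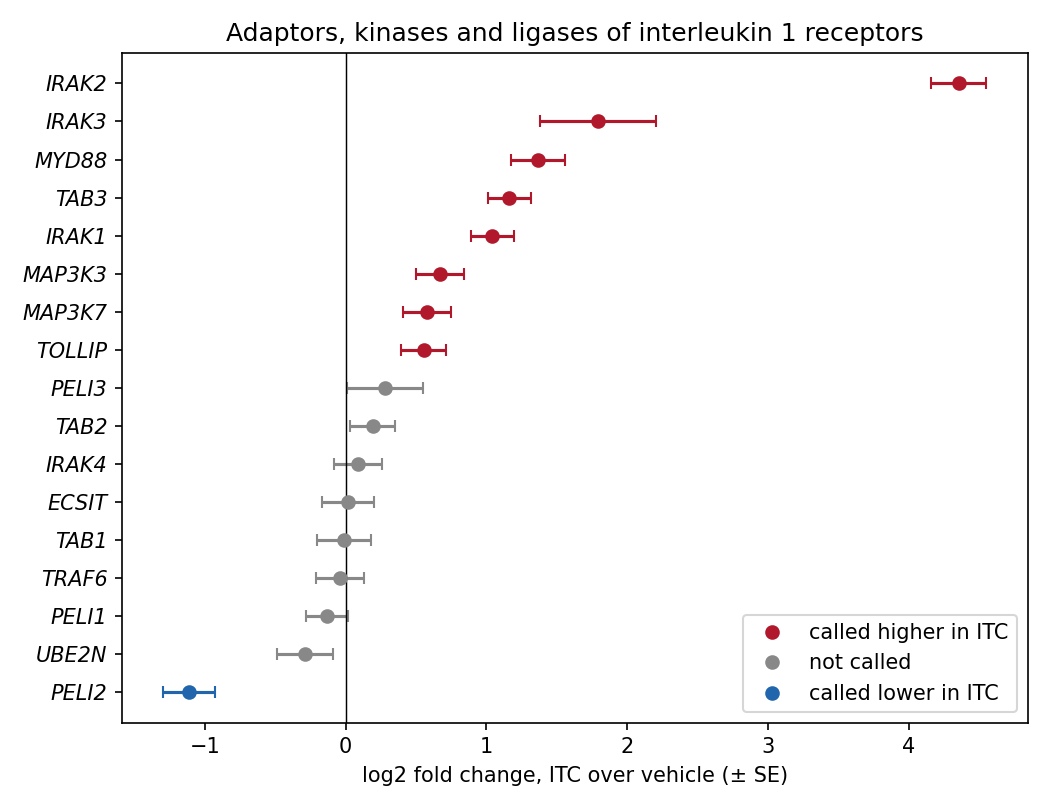
Log2 fold change, ITC over vehicle, of the 17 interleukin 1 receptor signaling genes, with bars of 1 SE and colors for the edgeR call. IRAK2 stands apart at 4.36, PELI2 is the lowest at -1.11, and the 8 genes in gray were not called.

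Of 16 genes for processing and release of the ligands, 15 had a row and 11 were tested, of which 2 were higher, 1 lower and 8 not called, with a median log2 fold change of 0.17. The share called over all tested genes was 39.4%, with 20.4% higher and 19.0% lower. CASP1, the protease that matures interleukin 1 beta and interleukin 18, had 56, 73 and 86 counts in ITC, against 6, 5 and 48 in vehicle. Vehicle replicate 3 lay far above the other vehicle libraries, and the groups did not overlap. CASP1 had a log2 fold change of 2.51 ± 0.52 (SE, n = 3 each, edgeR adjusted p = 0.00144), and 3.87 without vehicle replicate 3. Its vehicle counts alone would not have passed the filter on low counts, so its place among the tested genes depends on its ITC counts. CAPN1, a calpain protease of the kind that cuts the interleukin 1 alpha precursor, averaged 183 ± 39.4 CPM in ITC and 101 ± 20.3 CPM in vehicle (0.86 ± 0.19, adjusted p = 0.00282). NLRP1, an inflammasome sensor, averaged 129 ± 11.6 CPM in ITC and 190 ± 19.9 CPM in vehicle (-0.56 ± 0.16, adjusted p = 0.0109), a call lost without ITC replicate 2 (0.0755) and without vehicle replicate 2 (0.0760).

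The most abundant processing genes that were not called were CAPN2, NINJ1 and NEK7. CAPN2, another calpain, averaged 279 ± 16.1 CPM in ITC and 322 ± 8.88 CPM in vehicle (edgeR adjusted p = 0.294). Each ITC library was below each vehicle library for CAPN2, and with library size only it was called lower (-0.43, adjusted p = 0.0299). NINJ1, which mediates membrane rupture, averaged 117 ± 19.98 CPM in ITC and 92.7 ± 8.95 CPM in vehicle (edgeR adjusted p = 0.125), with each ITC library above each vehicle library. NEK7, a partner of NLRP3, averaged 54.4 ± 10.2 CPM in ITC and 48.3 ± 10.5 CPM in vehicle (adjusted p = 0.508). Named after their values were seen, 3 genes had too few counts for the test. The inflammasome sensor NLRP3 had 0, 0 and 0 counts in ITC, against 1, 2 and 12 in vehicle. CASP4, an inflammatory caspase, had 2, 9 and 14 counts in ITC, against 0, 0 and 2 in vehicle, a ratio of 17.7 (95% counting interval 4.42 to 155). CARD16, a caspase 1 regulator, had 8, 4 and 3 counts in ITC and 0 in each vehicle library. This is 7.10-fold higher by a floor of 3 counts in the vehicle group.

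Genes known as interleukin 1 targets were higher in ITC in all 8 of 8 cases, with a median log2 fold change of 6.74. The shares over all tested genes were 20.4% higher and 19.0% lower, with a median of -0.01. This list was chosen with earlier results of these data known. Most of them are also known to respond to tumor necrosis factor alpha, and the mixture contains both cytokines, so their effects cannot be told apart here. The smallest p-values were those of PTGS2, TNFAIP3 and NFKBIZ. PTGS2, the inducible cyclooxygenase, had a log2 fold change of 9.002 ± 0.27 and TNFAIP3, a brake on NF-kappa-B, 6.66 ± 0.23 (edgeR adjusted p = 1.65e-11 and 3.75e-11). NFKBIZ, a nuclear coregulator that interleukin 1 induces, averaged 162 ± 7.15 CPM in ITC and 3.93 ± 0.850 CPM in vehicle (5.34 ± 0.20, adjusted p = 1.03e-10). The smallest log2 fold change of the 8 was 3.26, that of NFKBIA, an inhibitor of NF-kappa-B. LCN2 and CSF3, named with NFKBIA after their values were seen, had no vehicle count. They were 96.1-fold and 698-fold higher by the floor of 3 counts over the group. Both could pass the filter on low counts only through their ITC counts.

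IL1A, IL1B and IL1RN lie in a ligand cluster on chromosome 2. Within 200 kb of it, 10 genes outside the lists had a row and 7 were tested, of which 4 were higher, 1 lower and 2 not called. Calls covered 39.4% of all tested genes. The gene that fell, CKAP2L, encodes a spindle protein of dividing cells and had 6, 9 and 6 counts in ITC, against 421, 333 and 805 in vehicle (log2 fold change -5.64 ± 0.28, edgeR adjusted p = 1.32e-09). PSD4, an exchange factor for small GTPases, averaged 35.0 ± 3.16 CPM in ITC and 5.30 ± 0.841 CPM in vehicle (2.72 ± 0.18, adjusted p = 2.72e-08). PAX8, a transcription factor of thyroid and kidney, averaged 17.2 ± 2.58 CPM in ITC and 2.48 ± 0.409 CPM in vehicle (2.78 ± 0.22, adjusted p = 1.42e-07), and 685 of its exon bases overlap PAX8-AS1 on the opposite strand. Named after their values were seen, PAX8-AS1 (1.04 ± 0.15, edgeR adjusted p = 6.51e-05) and the phosphate transporter SLC20A1 (0.44 ± 0.14, adjusted p = 0.0242) were the other called genes. SLC20A1 lost its call with upper quartile scaling (edgeR adjusted p = 0.0959), with library size only (0.243), without a filter (0.0734), and without ITC replicate 2 (0.0724), ITC replicate 3 (0.0531), vehicle replicate 2 (0.138) or vehicle replicate 3 (0.112). IL1R1, IL1RL1, IL18R1, IL1R2 and IL1RL2 lie in a receptor cluster on the same chromosome, where the 1 other gene with a row, SLC9A4, was not tested. Neighbours of the ligands thus moved in both directions.

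**Figure D5:**
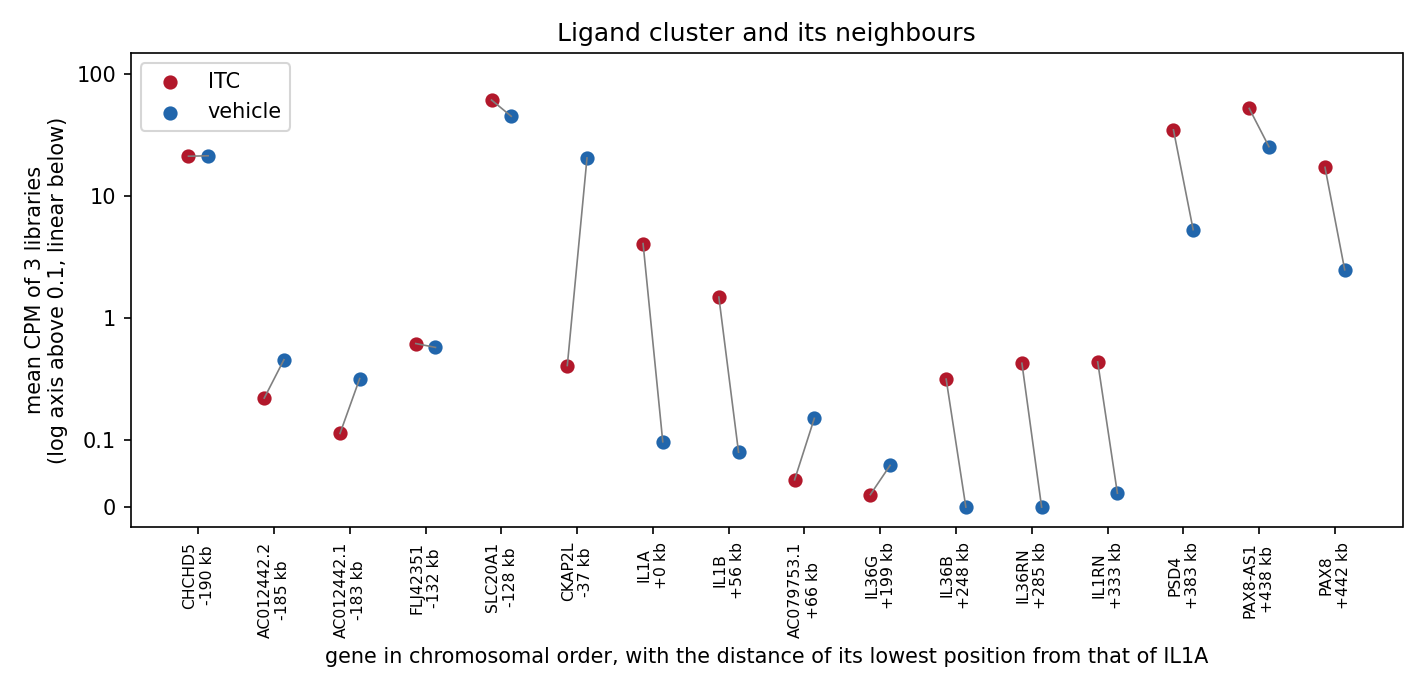
Mean CPM of the 3 libraries of each group (ITC red, left; vehicle blue, right; log axis above 0.1 and linear below) for the 16 genes with a row in and around the interleukin 1 ligand cluster on chromosome 2, in chromosomal order with their distance from IL1A. IL1A (4.07 CPM in ITC, 0.0966 CPM in vehicle) lies next to CKAP2L (0.406 CPM in ITC, 20.6 CPM in vehicle), which runs the other way.

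Library totals ran from 17808993 to 19327421 counts in ITC and from 17398921 to 29941685 in vehicle, and mitochondrial transcripts took 3.07 ± 0.397% in ITC and 4.19 ± 0.739% in vehicle (exact permutation p = 0.1). Of 10 astrocyte markers, 10 were tested, 1 was higher, 7 lower and 2 not called. The shares over all tested genes were 20.4% higher and 19.0% lower. The summed level of the 10 markers was 1549 to 1966 CPM in ITC and 1868 to 2067 CPM in vehicle. The marker that rose, SOX9, carried much of the ITC sum, and the other 9 summed to 598 to 671 CPM in ITC and 1250 to 1481 CPM in vehicle. Since microglia are a known source of interleukin 1, their markers are given beside it. Of 12 microglia and macrophage markers 8 had a row and 1 was tested, and their summed level was 1.89 to 3.18 CPM in ITC and 0.648 to 1.26 CPM in vehicle (0.721 to 1.53 CPM in ITC and 0.648 to 1.05 CPM in vehicle without ITGAM). AIF1, SPI1 and C1QA, named after their values were seen, had 0 counts in ITC and 4, 4 and 2 counts over the vehicle group. ITGAM and CSF1R, which had more counts, ran the other way. The tested marker, ITGAM, had 26, 21 and 28 counts in ITC, against 0, 4 and 7 in vehicle (log2 fold change 3.26 ± 0.66, edgeR adjusted p = 0.00124). ITGAM could pass the filter on low counts only through its ITC counts. CSF1R had 42 counts over the ITC group and 16 over the vehicle group. Endothelial markers, another cell type that uses IL1R1, summed to 5.76 to 8.43 CPM in ITC and 1.78 to 2.19 CPM in vehicle. Of 7 with a row only 2 were tested, TEK and KDR, and both were higher, against 20.4% of all tested genes. The part of these cell types in the levels of IL1A, IL1B and IL1R1 was not tested.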

How the data were processed

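RNA-seq was done on 6 libraries, 3 ITC and 3 vehicle, grouped by their titles. Per the labels' protocols, RNA was column-extracted with a DNase step and poly-A selected. The authors deposited a table of 30949 genes (lowest row total 2 counts) with raw counts per gene, FPKM, a size-factor normalized signal, log2 fold changes of vehicle over ITC and p-values, per the file headers. The submitters' processing notes name GRCh38 and DESeq2, while aligner, counting program and strandedness were not given in the sources used here. Of the table, 26 names turned into dates were restored by identifier, 0 columns were unmapped and 0 rows named no gene.

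The test of counts used edgeR 4.0.16 (R 4.3.3): filterByExpr kept 16756 genes and dropped 14193, and TMM scaling, the quasi-likelihood test without covariates and Benjamini-Hochberg adjustment at 0.05 followed. CPM use TMM-scaled library sizes. SE is the log2 fold change divided by the square root of F, and can be too small where a group has few counts. Ratios against few counts have 95% exact binomial intervals, and folds against 0 use a floor of 3 counts over the group. The intervals cover counting error only, at 17398921 to 29941685 counts per library. The floor leaves out counting error in the ITC counts, so these folds are not lower limits. Per-length ratios used the deposited FPKM with a pseudocount of 0.01 and exact permutation tests (Python 3.11.15, scipy 1.17.1, figures with matplotlib 3.10.9). Alternatives, with DESeq2 1.42.0 and limma 3.58.1 among them, are in the closing section. The pipeline was tested on simulated data. Within groups, chi-square per degree of freedom between libraries was 11.3 or more, above sampling noise, and p-values measure the spread between these libraries.

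The members and gene lists were chosen with earlier results of these data known. Named genes were the members, all family genes with a row, up to 5 called genes by p and 3 uncalled genes by CPM of the signaling and processing lists, up to 3 called targets and locus neighbours by p, up to 3 markers per cell type by CPM, and the 3 genes nearest to IL1R1. Others are said to be named after their values were seen. The receptor cluster was taken to end at IL18R1, since IL18RAP was not analysed here. Exon overlaps and 3′ UTRs came from GENCODE 29, promoters from RefSeq. Marker lists of other cell types moved in mixed directions, beside 20.4% higher and 19.0% lower over all tested genes. Of 6 tested oligodendrocyte lineage markers 3 were higher and 3 lower. Of 7 tested neuron markers 1 was higher and 3 lower, with a sum of 1121 to 1360 CPM in ITC and 552 to 579 CPM in vehicle (64.9 to 95.0 in ITC and 187 to 260 in vehicle without GAP43). Of 8 mesenchymal markers 2 were higher and 3 lower (671 to 867 CPM in ITC, 689 to 775 CPM in vehicle), and of 5 tested epithelial markers 0 were higher and 2 lower (46.2 to 71.5 CPM in ITC, 41.4 to 88.7 CPM in vehicle). Sums without the most abundant marker, and locus neighbours under each setting, were added after seeing the data.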

Additional observations from a re-analysis of the deposited data

How the results depend on the processing

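IL1A, IL1R1, IL1RAP and SIGIRR kept their direction and their call in all 16 alternatives, and IL1B in the 15 that kept it (it was dropped when 1 CPM was required in 3 libraries). The highest adjusted p of IL1RAP was 0.0469, with library size only. On log2(FPKM + 1) the log2 fold changes of IL1A and IL1B were 1.46 and 0.53, since a pseudocount shrinks low levels. Called members numbered 4 to 7 against 5, and called genes 4474 to 8416 against 6599. The median log2 fold change of all genes was -0.16 with upper quartile scaling (2662 genes higher, 4059 lower), -0.24 with library size only (2282 higher, 4804 lower), -0.21 without a filter and -0.19 with DESeq2, against -0.01 (3423 higher, 3176 lower). The log2 fold change of IL18 was -0.034 with upper quartile scaling and -0.11 with library size only, and ranged from -0.14 to 0.58 with 1 library left out. That of IL33 passed the threshold with library size only (-1.11, adjusted p = 0.0473), without a filter (-0.90, adjusted p = 0.0371) and with the replicate block (-0.95, adjusted p = 0.0145), and ranged from -1.32 to -0.53 with 1 library left out. The log2 ratio of IL1B over IL1RN ranged from -0.37 to 1.66 with 1 library left out. The cause of these shifts was not tested.

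Counts of called list genes under all settings were added after seeing the data. Of the other ligands 2 were called without a filter and with DESeq2, against 0. Of the other receptors 1 was called with library size only and with at least 1 CPM in 3 libraries, 1 to 2 with 1 library left out, and 3 with DESeq2, against 2. Of the processing genes 5 were called with library size only, without a filter, with the replicate block and with DESeq2, against 3. The added genes were CAPN2 and CARD8 with library size only, CASP4 and CARD16 without a filter and with DESeq2, and NINJ1 (0.32 ± 0.12, adjusted p = 0.0387) and CARD8 with the replicate block. Same-numbered libraries deviated together with correlations of 0.268, 0.007 and 0.384. ITC replicate 1 with vehicle replicate 3 gave -0.305, and ITC replicate 3 with vehicle replicate 1 gave -0.338. ITC replicate 2 was near 0 with each vehicle library (0.037, 0.007 and -0.041). These correlations do not settle whether equal numbers mark a shared batch. No label says so, and the main fit therefore had no block. The replicate block gave 8416 called genes and 6 called members, IL33 being the added one. Few counts limit IL1RN, IL1RL1 and the vehicle levels of IL1A and IL1B.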
